A study of Homo sapiens with 6 samples.

Results

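In total 10 mRNAs that encode enzymes of glycolysis and lactate formation were followed, out of 15739 RefSeq transcripts in the deposited tables of RT stops. The members were chosen by gene name: GPI, ALDOA, TPI1, GAPDH, PGK1, PGAM1, ENO1, PKM, LDHA and LDHB. Each of these genes had 1 RefSeq transcript in the tables, and that transcript was listed in all 6 libraries. Reverse transcriptase (RT) halts at certain nucleotides of an RNA, and each such halt is an RT stop. Dimethyl sulfate (DMS) methylates the base-pairing face of unpaired A and C, which adds RT stops there. It also methylates G, except where runs of G are folded into a G-quadruplex. Per the paper, this methylation lowers RT stalling by such structures. All libraries came from U2OS cells, a human osteosarcoma line. Of the 6 libraries, 2 were made without DMS, with RT in 150 mM of K+ or of Na+ by the sample labels. In vitro libraries came from poly(A)-selected mRNA that was refolded and DMS-treated in 150 mM K+ or 150 mM Li+ and reverse transcribed in K+. In-cell libraries came from unstressed cells and from cells kept for 2 h in the starvation medium HBSS, and both were treated with 8% DMS for 5 min. HBSS is a salt solution that holds glucose but no amino acids or serum. Each condition had a single library, so no test between conditions was possible and all intervals are 95% intervals of counting error only. PCR and culture variation are not covered by them.

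Glycolysis splits glucose into pyruvate in the cytosol. GPI turns glucose 6-phosphate into fructose 6-phosphate, aldolase A (ALDOA) cleaves the 6-carbon sugar and TPI1 interconverts the resulting trioses. GAPDH, PGK1, PGAM1, enolase (ENO1) and pyruvate kinase (PKM) carry the trioses to pyruvate, and the lactate dehydrogenase subunits LDHA and LDHB interconvert pyruvate and lactate. The mRNAs of these enzymes are abundant in most proliferating cells, and GAPDH is widely used as a reference transcript.

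The listed stops summed to between 12999691 in unstressed cells and 35371061 in the library labelled K+ without DMS. The members held between 2.48% (starved) and 3.53% (unstressed) of them. Of 7 genes typical of mesenchymal or osteosarcoma cells, 5 exceeded 10 stops per 1000000 listed stops in unstressed cells, with VIM at 3493, whereas the highest of 7 markers of epithelial, blood and liver cells, HBB, reached 3.92 and 4 of the 7 were not listed in cells. COL1A2 was not listed in any library. Transcript positions are counted from 1 at the first nucleotide of the RefSeq transcript, and genome positions are on GRCh37 (hg19).

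Levels are given as stops per 1000000 listed stops (ppm), and were compared between genes per kb of the entire transcript, nucleotides never listed included. GAPDH was the most abundant member in every library, at 11468 ppm per kb in unstressed cells. It was followed there by LDHB (1755), PKM (1653), ENO1 (1614), LDHA (1224), TPI1 (1222), ALDOA (827), PGK1 (439), PGAM1 (324) and GPI (154). In starved cells the order changed, and GAPDH (9275) and LDHB (3469) were followed by LDHA (1056), ENO1 (573), TPI1 (434), PGK1 (352), PKM (220), ALDOA (180), PGAM1 (136) and GPI (26.3). Many nucleotides were never listed, which lowers the value per kb, so this order depends on the length used. Any library listed a stop at 1549 of 2201 positions of ENO1, 1603 of 2319 of LDHA and 1079 of 1451 of TPI1. For GAPDH it was 1313 of 1401. PGAM1 and GPI had the most such gaps. For PGAM1, 748 of 1727 positions carried a listed stop in any library, and the authors kept only reads with 1 mapping position, so sequence shared with its close copy PGAM4 is uncertain. For GPI, 2124 of 4246 positions did, and between 1.83 and 10.8% of its stops lay beyond the midpoint of its listed span.

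The share of a transcript among all listed stops, in ppm, was compared between starved and unstressed cells. Among the enzymes that lead to the trioses, the share was lower in the starved library for every member. GPI had 460, 486, 528 and 493 ppm in the 4 libraries without DMS or in vitro, 619 in unstressed cells and 106 in starved cells. The starved library was therefore 5.84-fold lower than the unstressed one (interval 5.59 to 6.11). ALDOA went from 1441 to 314 ppm, 4.59-fold lower (interval 4.47 to 4.72), and TPI1 from 1774 to 630, 2.82-fold lower (interval 2.76 to 2.87). TPI1 was also the only member that was over 1.5-fold higher in unstressed cells than after refolding in K+ (984 ppm), at 1.80-fold (interval 1.77 to 1.84), a difference found in 20.6% of 6580 transcripts. No member was over 1.5-fold lower in that comparison (25.8% of transcripts), and none passed 1.5-fold in either direction between K+ and Li+ in vitro, between the libraries without DMS, or between K+ in vitro and the library labelled K+. In these comparisons 0.0391 to 5.41% of all transcripts were past that fold in a given direction (5.41 and 0.0391%, 2.82 and 0.553%, 1.19 and 0.405% lower and higher, in the order given).

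The enzymes that carry trioses to pyruvate differed widely among themselves. PKM, whose product makes pyruvate and ATP, showed the largest difference among the members. It had 3642 and 3683 ppm without DMS, 4202 and 3888 in vitro, 4712 in unstressed cells and 626 in starved cells. The starved library was 7.53-fold lower (interval 7.40 to 7.67) than the unstressed one and lower than all others. ENO1 went from 3553 to 1260 ppm, 2.82-fold lower (interval 2.78 to 2.86). PGAM1 went from 559 to 235, 2.38-fold lower (interval 2.30 to 2.47). GAPDH stayed within 1.5-fold, with 16067 ppm in unstressed and 12994 in starved cells, and its starved value lay within the 10999 to 16067 spanned by the other libraries. PGK1, which makes the first ATP of the pathway, had 1056 and 847 ppm, 1.25-fold lower (interval 1.22 to 1.27).

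Of the lactate dehydrogenase subunits, LDHB was higher in starved cells and LDHA changed little. LDHA had 2838 ppm in unstressed and 2449 in starved cells, a 1.16-fold lower share (log2 difference -0.21), which median-of-ratios size factors turned to 0.045. LDHB was between 2529 and 2731 in the 5 other libraries and reached 5339 in starved cells, 1.98-fold higher than in unstressed cells (interval 1.95 to 2.00). By share of listed stops, LDHB was the only member that was higher in starved cells.

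**Figure D1:**
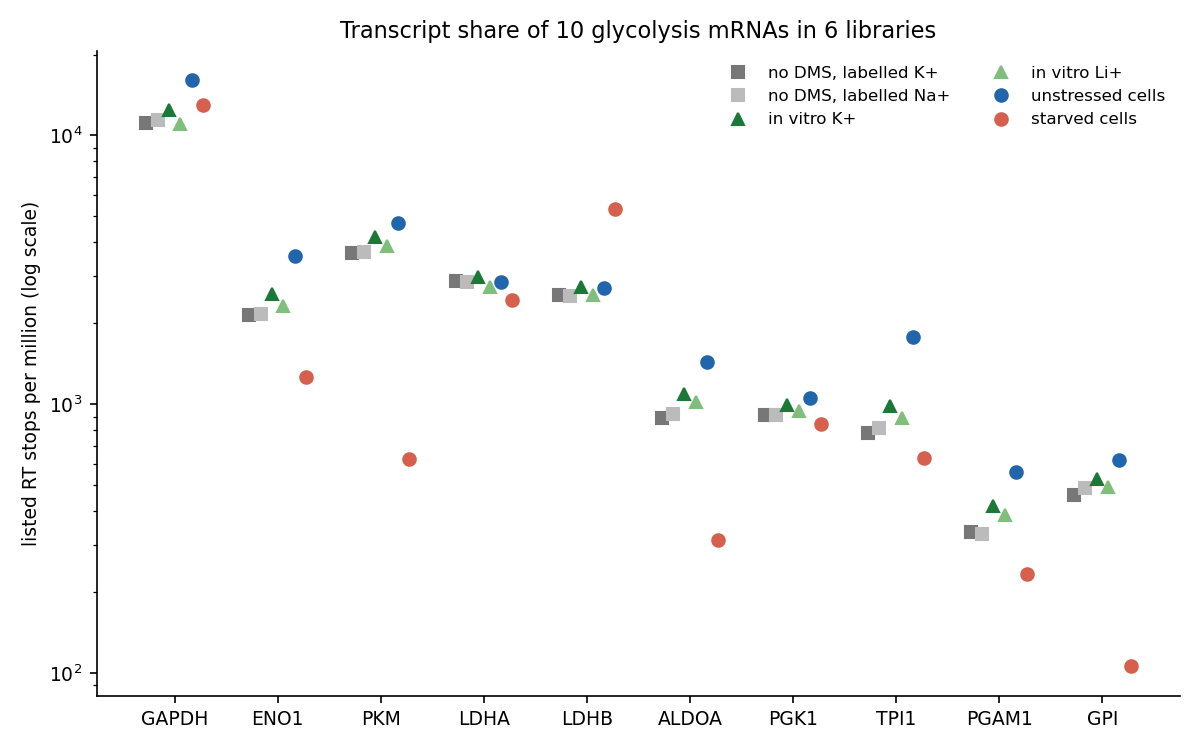
Listed RT stops in ppm (log axis) of each glycolysis mRNA in the 6 libraries, 1 point per library. The starved library is the lowest of the 6 for every mRNA except GAPDH and LDHB, and for LDHB it is the highest, at 5339.

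By the 1.5-fold rule, 6 of 10 members were lower and 1 was higher in starved cells. Among all 5883 transcripts with at least 100 stops in both in-cell libraries, 42.9% were at least 1.5-fold lower and 28.4% at least 1.5-fold higher, so differences of this size were common. The median log2 difference was -1.37 over the members and -0.26 over all transcripts. Across the 1485 transcripts that averaged 1 or more stops per nucleotide in every library, this difference followed the G and C content (GC) of the transcript (Spearman's rho = -0.69, across transcripts of the same pair of libraries). The median log2 difference was 0.90 in transcripts with 35 to 40% GC and -1.70 above 60%. The part of GC content in the members' differences was not tested, and their values are given beside transcripts within 2 percentage points of GC. GAPDH (56.5% GC) was at -0.31 and 151 such transcripts had a median of -1.35. LDHB (46.6% GC) was at 0.98 against 0.07, and ENO1 (57.2% GC) at -1.50 against -1.35. GAPDH and LDHB thus lay above the median of transcripts of like GC, and ENO1 lay near it. PKM (58.2% GC, -2.91 against -1.42) and GPI (52.5% GC, -2.55 against -0.84) were the furthest below. The remaining 5 members were between 0.35 and 0.77 below such transcripts on the log2 scale, LDHA and PGK1 included. Against K+ in vitro, starved cells had 6 members lower and 1 higher too, where 43.1 and 21.3% of all transcripts were. In bulk libraries a lower share in some cells and a lower share in every cell cannot be told apart.

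**Figure D2:**
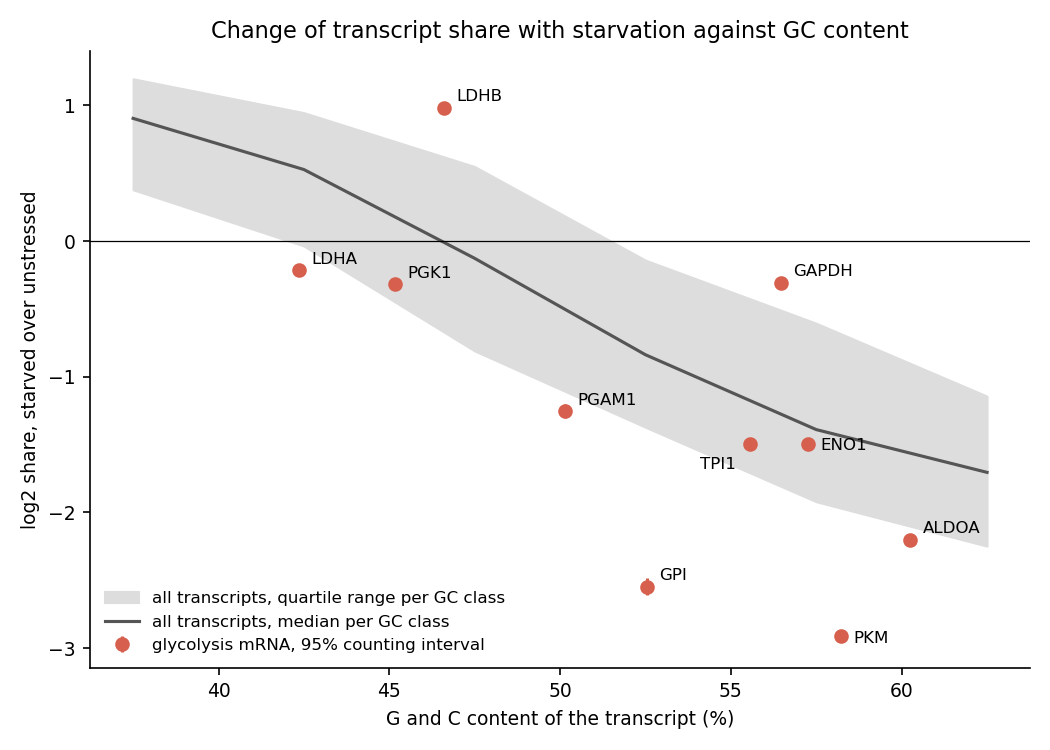
Log2 share in starved over unstressed cells (y axis) against the GC content of the transcript (x axis, %); the line and band give the median and quartiles of these 1485 transcripts in classes of GC, and points give the members with 95% counting intervals, mostly smaller than the points. GAPDH and LDHB lie above the band, and PKM and GPI lie far below it.

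Most other genes of the pathway that could be compared had lower shares in starved cells. Of 31 genes for isoenzymes, regulators, transporters and neighbouring pathways, 16 had at least 100 stops in both in-cell libraries. Of these, 14 were at least 1.5-fold lower in starved cells and 1 was higher, with a median log2 difference of -1.36, against 42.9% lower, 28.4% higher and a median of -0.26 over all transcripts. HK1, the hexokinase that phosphorylates glucose, was 7.79-fold lower, and PFKP, a phosphofructokinase subunit, was 6.98-fold lower. The glucose transporter SLC2A1 was 3.03-fold lower, the neuronal enolase isoform ENO2 2.99-fold lower, PGM1 2.91-fold, TKT 2.86-fold, TALDO1 2.69-fold, PDHA1 2.44-fold, PGD 2.43-fold, PFKM 2.10-fold, ENO3 1.83-fold, PDK3 1.81-fold and DLAT 1.53-fold lower. PDHB, the beta subunit of pyruvate dehydrogenase, went from 85.7 to 168 ppm. The lactate and pyruvate carrier SLC16A1 was the gene between the limits, at 189 and 236. These genes were not set beside transcripts of like GC, and the part of GC content in their differences was not tested. PDHB (41.2% GC) and SLC16A1 (39.7%) were low in GC. Among the lower genes GC was 58.2% for TKT, 53.1% for PFKP and 49.7% for HK1, but 43.6% for PDHA1 and 41.8% for DLAT. PFKL (400 and 30 stops), PFKFB3 (401 and 95 stops) and SLC2A3 (114 and 72 stops) missed the minimum only in the starved library. PFKFB2 (79 and 399 stops) and BPGM (18 and 130 stops) missed it only in the unstressed library, so both counts leave out genes with large differences.

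Among 1929 transcripts with at least 1000 stops in every library, members included, the non-members whose centred log2 shares over the 6 libraries lay closest to those of GAPDH were EEF1G, SNRPC and STOML2. Their Euclidean distances to GAPDH were 0.10, 0.10 and 0.11. Their log2 differences between starved and unstressed cells were -0.44, -0.25 and -0.41, and their GC contents were 54.2, 48.7 and 54.3%.

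Where RT stopped within the members was described next. The share of a member's stops at A or C was higher in every library with DMS, which adds stops at these bases. It was between 48.5 and 54.1% in the libraries without DMS, between 72.0 and 81.3% in vitro and between 79.7 and 89.0% in unstressed cells. In starved cells it was between 67.8 and 79.5%, lower than in unstressed cells for 10 of 10 members, with differences from -12.9 to -8.78 percentage points (median -11.4). Such a difference was found in 99.9% of all 1485 transcripts, with a median of -11.8 points, so it was not particular to the glycolysis mRNAs. For GAPDH these bases held 54.0 and 54.1% of the stops in the libraries without DMS, 78.3% in both in vitro libraries, 84.2% in unstressed and 72.7% in starved cells. The share at A alone hardly differed between the in-cell libraries for GAPDH (49.1 and 49.2%), while that at C went from 35.02 to 23.4% and that at G from 12.1 to 21.0%. Counted per nucleotide of each base, stops at C relative to A ranged from 0.47 to 0.62 over the members in unstressed cells and from 0.25 to 0.45 in starved cells. Every member was lower in starved cells, and the median over all 1485 transcripts was lower too, at 0.45 and 0.32.

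The profile of a member is its set of deposited ratios at A and C, each the stop count over the mean of the same base in that transcript. Profiles were most alike between refolding in K+ and in Li+. Spearman's rho across the A and C nucleotides of 1 mRNA was between 0.81 (GPI) and 0.97 (GAPDH) for this pair of libraries, with a median of 0.93. After thinning the median was 0.88, and the lowest values were 0.45 for GPI and 0.71 for ALDOA. With the local reference GPI was at 0.48. Unstressed cells and the K+ refolded mRNA were less alike, with rho from 0.51 (GPI) to 0.81 (TPI1) and a median of 0.71. For unstressed and starved cells rho ranged from 0.46 (GPI) to 0.89 (ENO1) with a median of 0.80. The order of the last 2 medians turned with the local reference (the 61 A and C nucleotides around each site), which gave 0.66 for unstressed and starved cells and 0.70 for unstressed cells and K+. The medians over 1457 transcripts were 0.66 (K+ and Li+), 0.46 (K+ and unstressed) and 0.55 (unstressed and starved). These values depend on depth, and the nucleotides of 1 mRNA share a library and are not replicates.

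The evenness of a profile was given by the Gini coefficient, which is 0 when all nucleotides carry equal ratios, after thinning each mRNA to its shallowest DMS library. GAPDH was the most even member in unstressed cells (0.37). GPI was the least even after thinning (0.84), but not without it (0.61, with PGK1 at 0.63) or with nucleotides not listed counted as 2 (0.48, with TPI1 and PGK1 at 0.56). PKM was less even in cells (0.61 unstressed, 0.60 starved) than in vitro (0.46 in K+, 0.47 in Li+). LDHA was also less even in cells, going from 0.37 in both in vitro libraries to 0.47 and 0.44. GAPDH was slightly more even in cells, going from 0.40 in both in vitro libraries to 0.37 in both in-cell libraries. The medians over the members were 0.50, 0.52, 0.57 and 0.54 in K+, Li+, unstressed and starved, against 0.63, 0.64, 0.66 and 0.65 over 1457 transcripts. Thinning matched depth between the libraries of 1 mRNA, but not between mRNAs. The coefficient depends on depth, and for GPI in K+ it was 0.54 without thinning and 0.80 after it. Members are therefore not compared with each other or with all transcripts at like depth.

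In-cell libraries had more stops towards the 3′ end. For PKM, the part beyond the midpoint of the listed span held 54.4 and 54.8% of stops without DMS, 57.0 and 57.3% in vitro, and 81.6 and 78.9% in unstressed and starved cells. GAPDH was at 50.2 to 51.3% in the 4 other libraries and at 64.7 and 61.4% in cells. The median over all 1485 transcripts went from 56.0% in K+ in vitro to 71.6 and 70.2% in cells, so the 3′ shift was general. The mean ratio at A and C in the 3′ UTR over that in the coding sequence showed the same shift. Its median over the members was 1.34 in K+ and 1.3 in Li+ in vitro, 2.43 in unstressed and 2.55 in starved cells, and it was above 1 for 8 of 10 members in K+, 7 in Li+ and 10 in both in-cell libraries. The same ratio was not computed for the other transcripts. ENO1 went from 1.67 in K+ to 3.72 in unstressed and 3.22 in starved cells. PKM went from 1.44 to 3.54 and 3.98, and GAPDH from 1.05 to 1.55 and 1.79. Without the last 150 nt the log2 ratio of GAPDH was lower in each library, at -0.73 in K+, -0.21 in unstressed and 0.07 in starved cells (31 nucleotides of the 3′ UTR), against 0.07, 0.63 and 0.84 with them, and the in-cell libraries stayed above K+.

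**Figure D3:**
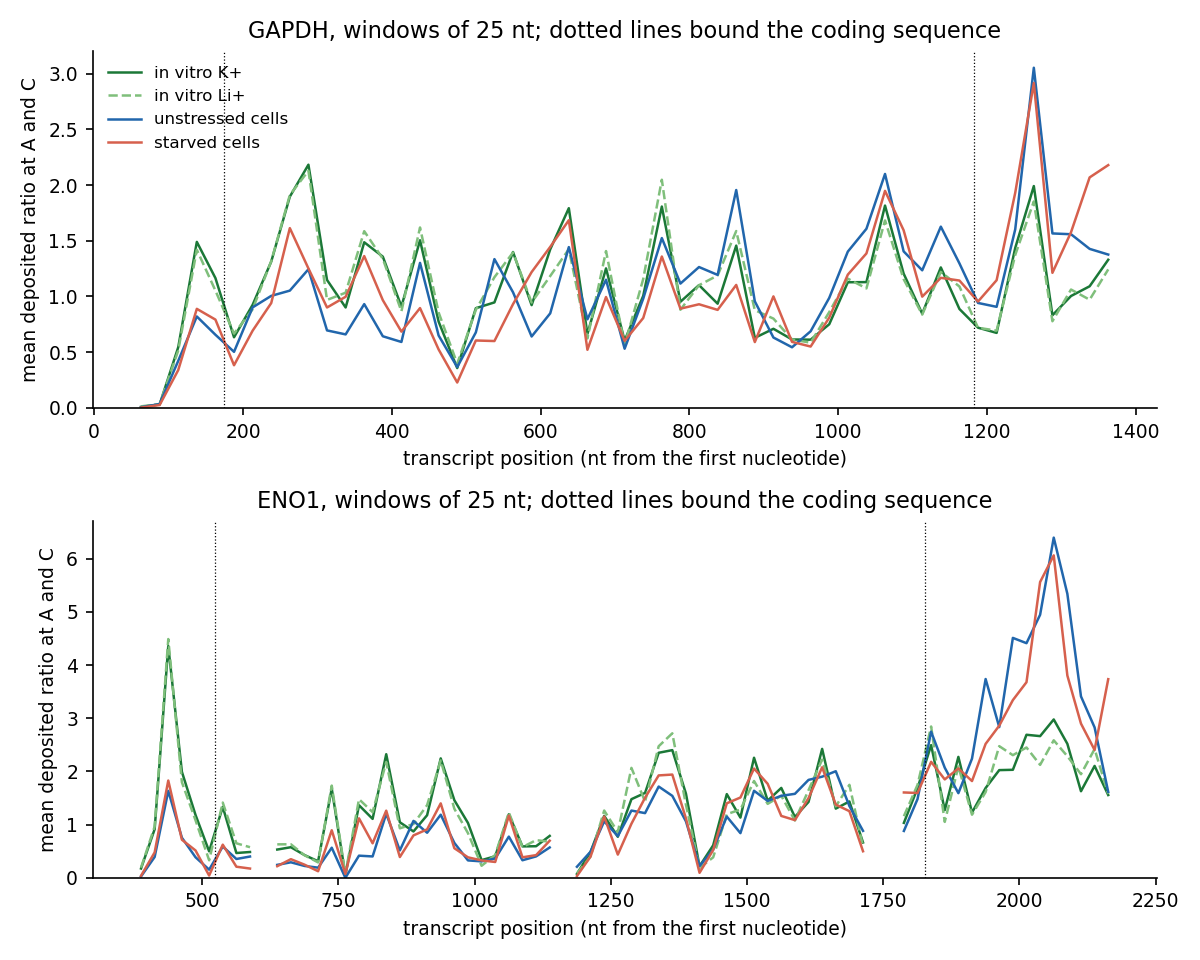
Mean deposited ratio at A and C (y axis) in windows of 25 nt along GAPDH and ENO1 (x axis, nt from the first nucleotide) for the 4 DMS libraries; gaps are windows with under 5 listed A and C nucleotides. The K+ and Li+ refolded profiles run together, and both in-cell profiles are mostly lower in the 5′ part and mostly higher in the 3′ UTR of ENO1.

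Single A and C nucleotides were compared by the fold of the deposited ratio where both libraries listed the nucleotide and at least 1 had 20 stops. Between refolding in K+ and Li+, 1 of 4917 member nucleotides was at least 4-fold higher in K+ and 5 were at least 4-fold lower, against 0.0514% and 0.22% of all transcripts' nucleotides. Between unstressed cells and K+ in vitro, 75 of 4658 (1.61%) were at least 4-fold higher and 167 (3.59%) at least 4-fold lower in cells, while the percentages over all transcripts were 3.83% and 2.78%. Most of the lower ones lay upstream: the coding sequence held 128, the 5′ UTRs 26 and the 3′ UTRs 13, and PKM alone held 56. Relative to the local reference, added after the 3′ shift was seen, 32 were higher and 35 lower, against 0.923% and 0.8% of all. Between starved cells and K+ in vitro, 41 of 4358 were higher and 81 lower (2.5% and 1.69% of all), and 17 and 5 with the local reference (0.779% and 0.352% of all). Between starved and unstressed cells, 22 of 3910 (0.563%) were at least 4-fold higher and 13 (0.332%) lower, against 1.17% and 0.686% of all. Both directions together, these 35 became 66 with the mean of the entire transcript, for which no share over all transcripts is given. Depth was not matched between the members and all transcripts in any of these comparisons.

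The nucleotides with the largest folds from K+ in vitro to unstressed cells were C in 3′ UTRs of ENO1 and ALDOA. The 30 nt around them are shown because the site keeps its difference under the local reference, with the named C in capitals. ENO1 lies on the minus strand (chr1:8921116-8921145, 3′ UTR, C2115 in capitals) and ALDOA on the plus strand (chr16:30081592-30081621, 3′ UTR, C1598 and C1599).
ENO1 2101 to 2130: gcctcgtgtcatctCcggggtggccacagg
ALDOA 1584 to 1613: agaggaggccgcctCCtcggggctccaggc
At ENO1 C2115 there were 16 and 14 stops without DMS, 8 (K+) and 15 (Li+) after refolding, 146 in unstressed and 23 in starved cells. The ratio was 0.34 in K+ and 5.65 in unstressed cells, 16.4-fold higher (interval 8.13 to 38.8), and 2.05 in starved cells. The local reference gave 9.38-fold. ENO1 C2002 (20 and 224 stops, 10.1-fold) and C1946 (16 and 144 stops, 8.11-fold) were next on this mRNA. At ALDOA C1598 there were 10 and 11 stops without DMS, 6 and 8 in vitro, 77 in unstressed and 6 in starved cells, 12.2-fold higher in unstressed cells than in K+ (interval 5.37 to 34.4). C1599 beside it was 8.50-fold higher (12 and 107 stops). At the other end were A724, A658, A722 and C881 of PKM and A314 of PGK1, all in coding sequence and between 9.36 and 14.3-fold lower in unstressed cells. In that order they had 4, 7, 5, 15 and 4 stops in unstressed cells, so the folds are imprecise. The interval was 5.38 to 53.6 for A724 and 3.45 to 35.6 for A314. With the local reference the 5 lowest were others, TPI1 C946, ENO1 C1882, A1903 and C1930, and ALDOA C511, between 4.90 and 6.76-fold lower.

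Between starved and unstressed cells, adjacent C in the coding sequence of GAPDH and a cluster of A in the 3′ UTR of PGK1 stood out. Both lie on the plus strand, at chr12:6646294-6646323 and chrX:77381714-77381743, with the named nucleotides in capitals.
GAPDH 529 to 558: gtcatcatctctgcCCcctctgctgatgcc
PGK1 1813 to 1842: tgagacaaAattgAtgatccAttaagtaaa
GAPDH C544 had 117 and 133 stops without DMS, 96 and 163 in vitro, 326 in unstressed and 61 in starved cells. Its ratio was 0.54 in K+, 1.91 in unstressed and 0.36 in starved cells, 5.34-fold lower in starved cells (interval 4.05 to 7.14). C543 had 60 and 76 stops in vitro, 158 in unstressed and 40 in starved cells, 3.95-fold lower (interval 2.77 to 5.73). At both nucleotides the unstressed library was the highest of the 4 DMS libraries and the starved one the lowest. PGK1 A1821 had 53 and 60 stops without DMS, 48 and 45 in vitro, 7 in unstressed and 74 in starved cells, 7.91-fold higher in starved cells (interval 3.65 to 20.4). A1833 (6 and 51 stops, 6.36-fold) and A1826 (11 and 72 stops, 4.90-fold) lie within the same 13 nt. The ratios at A1821 were 2.43 and 1.67 in vitro, 0.51 in unstressed and 4.04 in starved cells, and those at A1833 were 1.16, 1.49, 0.44 and 2.79, so the unstressed library was the lowest and the starved one the highest at both. At A1826 they were 0.86 and 1.00 in vitro, 0.80 in unstressed and 3.94 in starved cells, so there the starved library stood apart from the 3 others. LDHB C1505 (3 and 51 stops, 7.18-fold) and LDHA C1697 (9 and 52 stops, 5.63-fold), both in 3′ UTRs, were also higher in starved cells. PKM A1661 (74 and 3 stops, 5.87-fold) and TPI1 C1055 (110 and 12 stops, 4.44-fold) were lower.

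Strong stops at G were sought in the libraries without DMS, where a run of G that folds into a G-quadruplex can halt RT when K+ is present. A strong stop had a count at least 10-fold above the mean of the entire transcript (E). About the cation, sample labels and table names contradict each other for this pair of libraries, so the libraries are called by their labels and both directions are given. In the library labelled Na+, 7 of 5731 G nucleotides of the members (0.122%) were strong stops, against 0.343% of G in all transcripts past the minimum of 1 stop per nucleotide. In the library labelled K+ there were 9 (0.157%), against 0.102%. Of the members, GPI, PGK1, PGAM1 and GAPDH had at least 1 strong stop in either library.

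Only GPI and PGK1 had a strong stop at G that differed at least 2-fold between the libraries, both in coding sequence and both stronger in the library labelled Na+. That is 2 of 7, whereas 74.3% of strong stops at G of all transcripts in that library were at least 2-fold stronger than in the other. In the opposite direction there were 0 of 9, against 13.4% in all transcripts. The 30 nt that end at the stop, on the plus strand, are shown with runs of at least 2 G in capitals. The GPI sequence joins 19 nt of one exon (chr19:34872406-34872424) to 11 nt of the next (chr19:34884153-34884163), and that of PGK1 lies in 1 exon (chrX:77369606-77369635). A site of ALDOA (coding, 2 exons, chr16:30078964-30078982 and chr16:30079967-30079977) is added although it is not a strong stop and was chosen after its values were seen.
GPI 989 to 1018: catgttcgagttctGGGattGGGtGGGaGG
PGK1 538 to 567: ccgctttcatgtGGaGGaagaaGGGaaGGG
ALDOA 736 to 765: cGGtgttgtGGGcatcaaGGtagacaaGGG
GPI G1018 had 22 stops in the library labelled K+ and 901 in that labelled Na+, while its highest neighbour within 20 nt had 25 and 29. E was 5.38 and 220, a 40.9-fold difference (interval 26.8 to 65.5). Both E values are raised by the many GPI nucleotides without listed stops, which lower the transcript mean. PGK1 G567 had 18 and 371 stops, with E of 1.34 and 29.03, 21.7-fold apart (interval 13.5 to 37.0). ALDOA G765 had 13 and 104 stops, with E in the library labelled Na+ of 5.86.

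**Figure D4:**
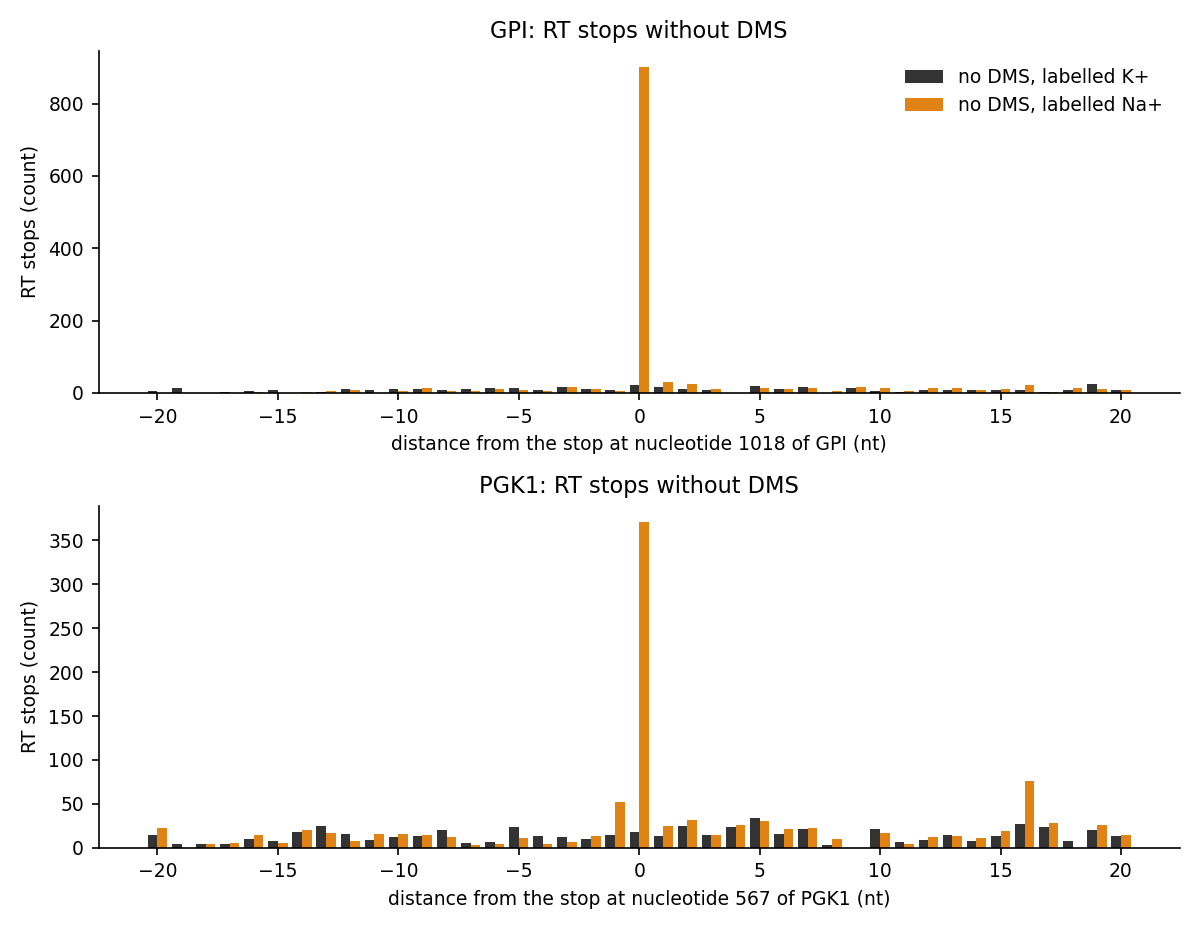
RT stops (count, y axis) within 20 nt of GPI G1018 and PGK1 G567 (x axis, nt) in the 2 libraries without DMS. In the library labelled Na+ a single bar of 901 stops stands at GPI G1018 and one of 371 at PGK1 G567, while the library labelled K+ has 22 and 18 there.

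In the DMS libraries, all reverse transcribed in K+, neither site was a strong stop. No G of a member was one in vitro, where 0.0346% (K+) and 0.0224% (Li+) of G in all transcripts were. E is not on a like scale with and without DMS, since stops added at A and C enter the transcript mean. G held 23.5 and 25.7% of all listed stops in the libraries labelled K+ and Na+. In K+ and Li+ in vitro, unstressed and starved cells it held 12.2, 12.1, 9.02 and 16.2%. GPI G1018 had 15 and 34 stops in K+ and Li+ in vitro, 9 in unstressed and 3 in starved cells. E in K+ was 0.58-fold that in Li+ (interval 0.29 to 1.10), which includes no difference. PGK1 G567 had 10, 13, 0 and 5 stops, where 0 stands for a nucleotide that was not listed, that is under 3 stops. Over the members, 616 G nucleotides (10.9% of the G for which such a window could be read) end a window of 30 nt with at least 4 separate runs of at least 2 G on the sense strand. Where both libraries listed the stop and 1 had at least 20, 11 of 252 of these (4.37%) differed 2-fold or more upwards in the library labelled Na+ and 2 in that labelled K+. Of 2112 other G nucleotides, 22 (1.04%) were higher in the former and 24 (1.14%) in the latter. Over all their G that could be compared, windowed or not, 34 of 2372 were 2-fold higher in the library labelled Na+ and 26 in that labelled K+, against 6.69% and 3.74% of 67931 G in all transcripts. Both window classes of the members were thus below the shares over all transcripts, for which windows were not read. Depth was not matched between the members and all transcripts, and counting error moves low counts further apart. Several of these nucleotides are neighbours in the same run, as at PGK1 G566 and G567, and are not independent.

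The strong stop of GAPDH was about equal in both libraries. It lies at G1321 in the 3′ UTR (chr12:6647446-6647475 for the 30 nt that end there, plus strand), shown because it is the strong stop with the most counts among the members, with the stop in capitals.
GAPDH 1292 to 1321: cacagttgccatgtagaccccttgaagagG
There were 3379 and 3183 stops in the libraries labelled K+ and Na+, with E of 12.01 and 11.7 and a fold of 0.97 (interval 0.93 to 1.02). In the DMS libraries E at G1321 was between 3.11 and 5.76. PGAM1 had 7 G that were strong stops in at least 1 of these libraries, at G480 in the coding sequence and at G1213, G1214, G1256, G1328, G1338 and G1706 in the 3′ UTR, with E between 8.81 and 14.4. These values rest on a transcript mean over many nucleotides without listed stops. GPI had G2117 and G2124 in the library labelled K+, with E of 10.5 and 10.0. Just below the limit of 10 were TPI1 G1075 at 9.54 and GPI G807 and G1205 at 9.30. In unstressed cells GPI G2108 was the only strong stop at G (E of 10.4, 23 stops), against 0.0416% of G in all transcripts. In starved cells GPI was under the minimum mean, and none of the 9 others had a strong stop at G (background 0.0877%). Without that minimum, GPI G2108, G2124 and G2094 had E of 17.1, 12.9 and 10.7 in starved cells, from 16, 12 and 10 stops. At E of at least 5, 21 G of the 10 members in unstressed cells (0.366%, against 0.427% of G in all transcripts) and 50 G of 9 members in starved cells (1.06%, against 0.939%) passed. By another measure, a deposited ratio of at least 10, it was 23 (0.401%, against 0.536%) and 7 (0.148%, against 0.286%), so the order of the in-cell libraries depended on the rule.

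The PKM transcript in the tables carries the exon 9 that marks the M1 isoform (chr15:72495363-72495529, 167 nt, minus strand, coding), which adult muscle uses, rather than the equally long exon of the M2 isoform (chr15:72494795-72494961), which proliferating cells commonly use. RT stops were scarce in it in every library. Per nucleotide, there were 7.05 and 6.74 stops in exon 9 without DMS, 5.80 and 7.75 in vitro, 3.31 in unstressed and 0.71 in starved cells. That was 13.8 and 13.7% of the level in exons 7 and 10 without DMS, 14.8 and 14.4% in vitro, 13.6% in unstressed and 13.1% in starved cells (interval 10.8 to 15.8% in starved cells). The interval in unstressed cells was 12.4 to 14.8%, inside that of starved cells. The M1 and M2 exons are identical at 105 of 167 nt. At the 11 positions of exon 9 whose next 20 nt are the same in both isoforms there were 49.8 stops per nucleotide in the library labelled K+, and at the 156 others there were 4.04, or 7.88% of exons 7 and 10. These 156 positions were at 4.90% in unstressed and 4.73% in starved cells. Stops in the M2 exon itself were not analysed here.

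**Figure D5:**
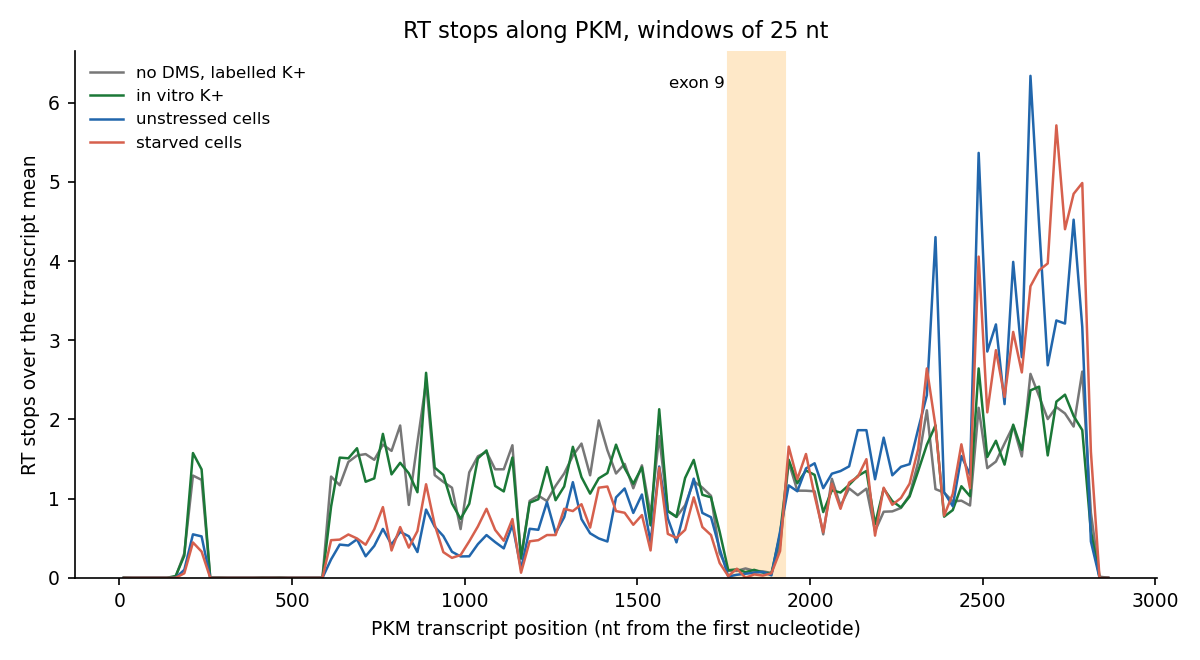
RT stops over the transcript mean (y axis) in windows of 25 nt along PKM (x axis, nt from the first nucleotide) in 4 libraries, with exon 9 shaded. All 4 lines lie close to 0 over most of exon 9, and the in-cell lines are mostly below the others upstream and above them near the 3′ end.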

How the data were processed

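The deposited tables list, for each nucleotide of a RefSeq transcript with at least 3 RT stops, a count and a ratio. Per the study's methods the authors removed duplicate reads, trimmed them and aligned them with Bowtie to the hg19 transcriptome with 0 mismatches and unique mapping. Versions are not given in the sources used here. The count is the deposited number of RT stops, and the deposited ratio divides it by the mean of the same base in that transcript, as a test on the files showed, although the methods describe a mean over the entire transcript. E, the count over the mean of the entire transcript, was rebuilt from both columns, as were transcript length and base composition. Nucleotides not listed count as 0 here and can hold up to 2 stops. The libraries without DMS are called by their sample labels, which the names of the deposited tables contradict, and the methods name Li+ in place of Na+.

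Shares are stops of a transcript per 1000000 listed stops, compared at 1.5-fold with at least 100 stops in both libraries. A and C nucleotides were compared at 4-fold, and strong stops at G at E of at least 10 with a transcript mean of at least 1. Share intervals are Wilson intervals and fold intervals exact conditional binomial ones, both at 95%. With 1 library per condition no test was made. Exons and genome positions came from GENCODE v44lift37 on GRCh37, matched to the listed bases, and coding sequence was the longest open reading frame. The sequences printed are the listed bases, filled from that reference.

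The members and gene lists were chosen with earlier results of these data known. Named are all members, pathway genes that differ at least 1.5-fold, the 5 highest and 5 lowest A or C nucleotides with at least 50 stops in each of 2 comparisons (unstressed over K+ in vitro, starved over unstressed), strong stops at G, and the 3 transcripts most like GAPDH. Some items that this rule names are not reported here. Of the alternatives, 25 were planned and 3 were added after the data were seen. Analyses ran in Python 3.11.15 with scipy 1.17.1, numpy 2.4.6 and pandas 2.3.3, and plots were drawn with matplotlib 3.10.9. The 1.5-fold rule for shares and the 4-fold rule for A and C were run on simulated counts with counting error only. The other measures were not simulated.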

Additional observations from a re-analysis of the deposited data

How the results depend on the processing

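No paired analysis was possible because each condition has 1 library and no test was made. The median log2 share of starved over unstressed cells, -1.37 as reported, was -1.12 with median-of-ratios size factors, -1.59 from stops at G and U only, -1.44 without the 10 nucleotides with most stops and -0.63 relative to transcripts of like GC, an alternative added after the data were seen. Size factors shift all transcripts alike by 0.26 and turn LDHA to 0.045, and the like-GC reference turns GAPDH to 1.05. Summing all RefSeq transcripts of a gene changed nothing, since each gene has 1. The 242 A and C nucleotides at least 4-fold apart between unstressed cells and K+ in vitro became 1602 at 2-fold, 123 with at least 50 stops and 67 with the local reference, also added later. The median profile correlation of these libraries, 0.71, was 0.68 after thinning, 0.73 as Pearson's r and 0.70 with the local reference, where unstressed and starved cells went from 0.80 to 0.66. The median Gini coefficient in unstressed cells, 0.57, was 0.54 without thinning and 0.50 with nucleotides not listed counted as 2. The median log2 ratio of 3′ UTR to coding sequence in unstressed cells, 1.28, was 1.37 over windows of 50 nt and 1.16 without the last 150 nt. The 7 strong stops at G in the library labelled Na+ became 81 at E of at least 5 and 2 at E of at least 20. The count of strong stops stronger in the library labelled K+ went from 0 to 5 at E of at least 5, all in GPI, that stronger in the library labelled Na+ from 2 to 8, and the opposite assignment of the labels gave 2. The remaining 10 alternatives of these summary values stayed within the limits set for a change. Of the values for single members and comparisons under alternatives, 54 stayed, 74 moved past the limits set for a change and 2 (LDHA and GAPDH above) changed direction. Direction was read only for log2 shares, and counts, correlations and coefficients have none. The cause of these differences was not tested. Nucleotides under 3 stops are not listed, and GPI and PGAM1 had the most such gaps among the members.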
